A study of Mus musculus with 12 samples.

Results

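The comparison described here sets 3 bone marrow libraries from infarcted mice given EMPA (MI-E) against 3 from infarcted mice given none (MI), which is 6 of the 12 libraries of the series, and covers every gene in the deposited tables. All mice were of strain C57BL/6N, and in both groups infarction was made by ligating the LAD, the left anterior descending coronary artery. The other 6 libraries, 3 from sham-operated mice given EMPA (Sham-E) and 3 from sham-operated mice given none (Sham), enter the fit and give a background for each value. EMPA is the usual short name of empagliflozin, an inhibitor of the kidney glucose transporter SGLT2, although the labels give the short name alone. The labels hold no dose, no length of treatment and no time from operation to collection. Whether the 3 libraries of a group stand for 3 animals is not stated either, so p-values refer to the spread between these libraries, which may be technical.

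Whole marrow holds dividing precursors of red cells, platelets, granulocytes, monocytes and lymphocytes, mature neutrophils and B cells waiting to leave, and a small stroma that keeps them there through factors such as Cxcl12. After a myocardial infarction the marrow is known to release neutrophils and monocytes into the blood. Because RNA was taken from the whole tissue, fewer cells of a type and less RNA per cell cannot be told apart in any value below. Libraries are named by their group and column number, MI-E 2, 3 and 4 and MI 1, 2 and 3. Levels are CPM, edgeR's counts scaled to a common library size, and all fold changes are log2 values of MI-E minus MI with their standard error.

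Total counts were 22307965 to 23062665 in MI-E libraries and 21175087 to 24606783 in MI libraries. Genes that define marrow were abundant in both groups, with mean log2(CPM + 0.5) of 7.58 to 7.80 in MI-E and 7.10 to 7.70 in MI for primary granule genes and 8.50 to 9.24 in MI-E and 7.75 to 8.95 in MI for erythroid genes, while skeletal muscle genes stood at 0.65 to 1.16 in MI-E and 0.64 to 0.74 in MI. The MI-E libraries were more alike (Pearson's r of log2 CPM 0.981 to 0.985 across genes) than the MI libraries (0.947 to 0.970), and r between MI 1 and the 3 MI-E libraries was 0.976 to 0.979, above r between MI 1 and either other MI library. The mean length of the sequenced inserts, recovered from counts and TPM, was 281.5 ± 1.25 bp in MI-E libraries and 264 ± 0.945 bp in MI libraries (SD, n = 3 each), with no overlap, against 277 bp in Sham-E and 286 bp in Sham. The fold change of a gene moved with its GC content: its median was -0.27 in the quintile of genes lowest in GC and 0.22 in the highest quintile, and it was 0.12 in the quintile of shortest transcripts and -0.15 in that of the longest. A fit corrected for GC content and transcript length was therefore run beside the main one, and its values are given where they bear on a group of genes; the part of insert length in the results was not tested.

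**Figure D1:**
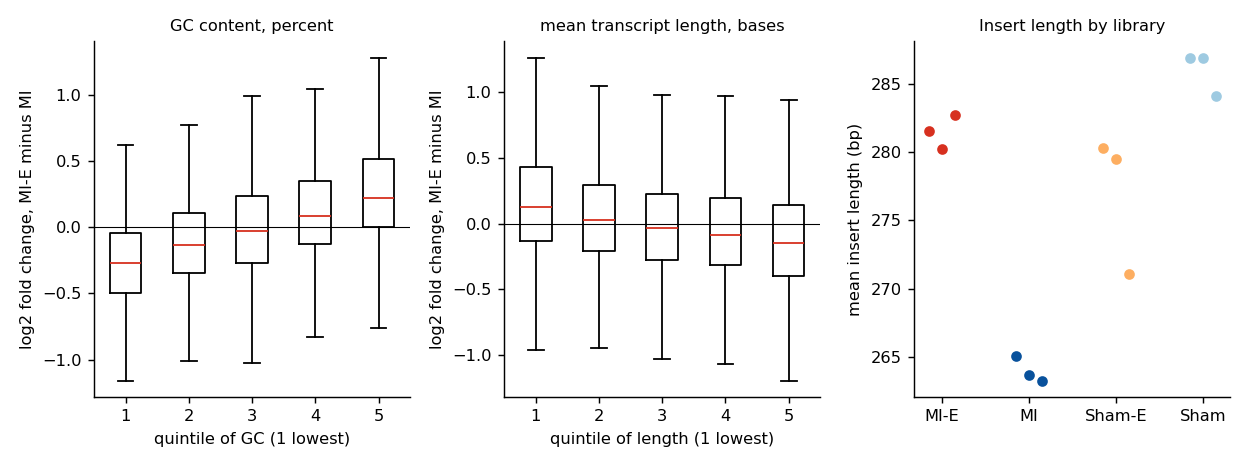
Log2 fold change of MI-E minus MI by quintiles of GC content and of mean transcript length (boxes show quartiles, whiskers reach 1.5 times the box, points beyond are not drawn), and mean insert length in bp of each library by group. The medians run from -0.27 to 0.22 across GC quintiles, and the 3 MI libraries have the shortest inserts, 263 to 265 bp.

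Of 53801 genes, 15119 had enough counts to be tested. At an adjusted p of 0.05 edgeR's quasi-likelihood test called 1 gene higher in MI-E (0.00661% of those tested) and 0 lower. At an unadjusted p under 0.05, 1288 genes were higher (8.52%) and 1342 lower (8.88%), 91 genes had an adjusted p under 0.1 (0.602%) and 1317 under 0.2 (8.71%). The 3 MI-E libraries lay wholly above the 3 MI libraries for 1750 genes (11.6%) and wholly below them for 1525 (10.1%). How many genes were called turned on the tool and on single libraries: DESeq2 called 338 higher (2.24%) and 239 lower (1.58%), edgeR without MI 1 called 487 higher (3.15%) and 501 lower (3.24%) of 15471 genes tested, and edgeR without Sham-E 1 called 32 higher and 10 lower. The gene groups below are therefore described by how many members were higher or lower and by how much, beside the same over all genes, and except for B430305J03Rik no gene named in them passed edgeR's adjusted threshold.

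**Figure D2:**
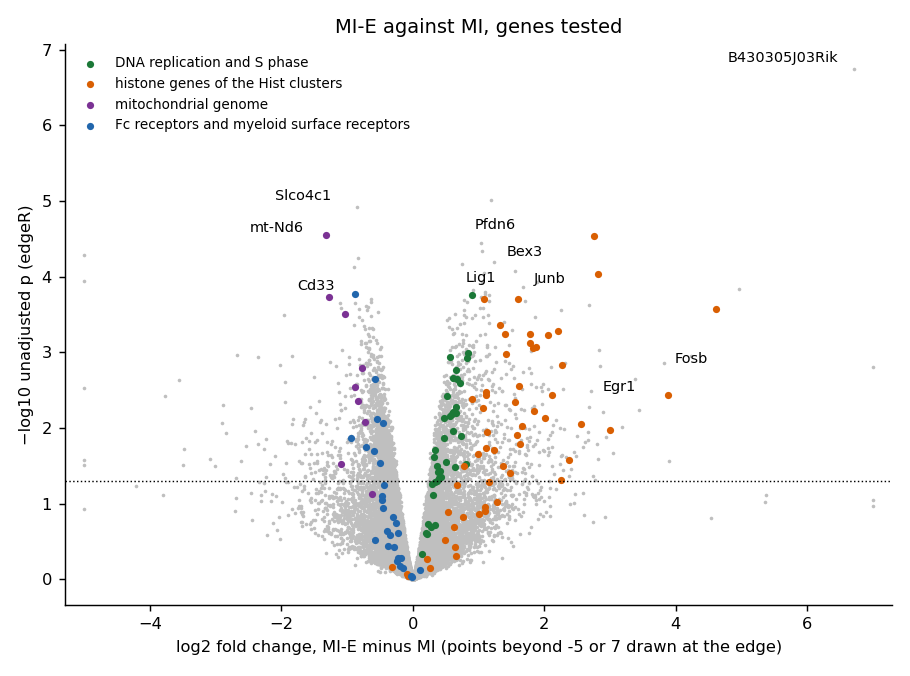
Each point is a gene tested, with its log2 fold change of MI-E minus MI on the x axis and −log10 of edgeR's unadjusted p on the y axis, and members of 4 gene lists are coloured. All S phase genes lie right of 0, all genes of the mitochondrial genome lie left of it, and B430305J03Rik stands alone at the top right.

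The called gene was B430305J03Rik, which had 4.44, 5.72 and 6.33 CPM in MI-E libraries, against 0, 0.149 and 0 CPM in MI libraries. Its log2 fold change was 6.71 ± 0.66 with an adjusted p of 0.0027 (edgeR). Sham-E libraries averaged 5.25 CPM and Sham libraries 8.42 CPM, so the MI libraries alone were near 0. It lies at chr3:61362250-61365951 on the minus strand (mm10), and 100% of its exon bases lie within Rap2b, a small GTPase gene of the opposite strand. The mean level of Rap2b was 38.8 CPM in MI-E libraries, against 48.5 CPM in MI libraries, and both genes summed to 44.3 CPM in MI-E libraries, against 48.6 CPM in MI libraries. Whether the libraries keep strand is not given in the sources used here, so reads of the pair cannot be assigned with certainty.

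A further 8 genes showed the same kind of step, a mean of at least 1 CPM in one group and under 0.1 CPM in the other, and each of these 9 genes shares at least 50% of its exon bases with another gene, as 434 of the 15119 genes tested do. AY036118, which lies wholly within the ribosomal RNA locus gene Gm42418 on the opposite strand, had 13620, 6796 and 10607 counts in MI-E and 0 in each MI library, at least 9977-fold higher on the CPM scale against a floor of 3 counts over the MI group. It varied as widely elsewhere, with 0 to 20515 counts among Sham-E libraries. Gm20463, opposite Rnf5, had the opposite pattern with 0 counts in each MI-E library and 33, 43 and 48 counts in MI libraries. E130208F15Rik, opposite Sdhaf1, had 0, 0 and 1 count in MI-E against 103, 29 and 142 counts in MI.

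Genes of DNA replication were higher in MI-E across the whole list. These genes load the MCM helicase, make deoxynucleotides and copy DNA during S phase. All 38 members had a positive fold change, which 47.6% of all genes had, with a median of 0.49 beside -0.02 over all genes. Of the 38, 28 were higher at an unadjusted p under 0.05 (73.7%, against 8.52% of all genes) and in 30 the libraries did not overlap (78.9%, against 11.6%). Averaged over its members, log2(CPM + 0.5) was 6.71, 6.63 and 6.98 in MI-E libraries and 6.33, 6.33 and 6.16 in MI libraries. The values of Sham-E ran from 6.30 to 6.83 and those of Sham from 6.66 to 6.82. Every MI library lay below every Sham library, while MI-E libraries lay on both sides of the Sham range.

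Lig1, the ligase that joins Okazaki fragments, had 174, 178 and 234 CPM in MI-E, against 120.1, 107 and 85.9 CPM in MI, with a log2 fold change of 0.91 ± 0.17 and an adjusted p of 0.085. Every MI-E library exceeded every MI library. Mcm5, a subunit of the replicative helicase, had 331, 329.5 and 360.3 CPM in MI-E, against 240.1, 259 and 191 CPM in MI (0.57 ± 0.14). Rrm2, the subunit of ribonucleotide reductase that limits deoxynucleotide supply, had 451, 421 and 655 CPM in MI-E, against 290.2, 287 and 283 CPM in MI (0.83 ± 0.20). E2f1, a transcription factor that drives entry into S phase, averaged 74.8 ± 14.2 CPM in MI-E libraries and 42.0 ± 9.46 CPM in MI (SD, n = 3 each). The sliding clamp gene Pcna had a fold change of 0.61, the helicase loaders Cdt1 and Cdc6 had 0.65 and 0.64, and the chromatin assembly subunits Chaf1a and Chaf1b had 0.72 and 0.67. The catalytic subunit gene of polymerase epsilon, Pole, was the lowest member at 0.14 with overlapping libraries.

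After correction for GC content and length the median was 0.50 and 32 of the 38 were higher at an unadjusted p under 0.05 (6.91% of all genes in that fit), and leaving out any 1 of the 6 libraries gave medians from 0.40 to 0.56. The difference between MI-E and MI exceeded that between Sham-E and Sham at an unadjusted p under 0.05 for 22 of the 38 (57.9%, against 6.22% of all genes), and for none at an adjusted p of 0.05. A difference below that in Sham was found for 0 of the 38, against 7.28% of all genes.

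E2F factors bind DNA at short sites in promoters of S phase genes, so the window from 250 bases before to 50 after each gene's start was searched on both strands for TTTCCCGC and TTTGGCGC. One or both were found in 10 of the 30 S phase genes with a RefSeq promoter (33.3%), against 353 of 10783 genes tested that have one (3.27%). The windows of 3 of the 10 members that hold a match, all with non-overlapping libraries, are shown as examples. They are given on the strand of the gene from RefSeq's GRCm38.p6 tables, with the match in capitals.
Mcm5, chr8:75109259-75109558, plus strand, match beginning 149 bases before the start: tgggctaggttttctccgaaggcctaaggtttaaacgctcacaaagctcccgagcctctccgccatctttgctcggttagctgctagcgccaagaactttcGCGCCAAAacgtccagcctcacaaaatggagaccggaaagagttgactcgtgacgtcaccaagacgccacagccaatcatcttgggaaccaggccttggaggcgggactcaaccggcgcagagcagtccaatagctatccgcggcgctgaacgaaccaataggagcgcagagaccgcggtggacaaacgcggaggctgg
Gins3, chr8:95633309-95633608, plus strand, match beginning 41 bases before the start: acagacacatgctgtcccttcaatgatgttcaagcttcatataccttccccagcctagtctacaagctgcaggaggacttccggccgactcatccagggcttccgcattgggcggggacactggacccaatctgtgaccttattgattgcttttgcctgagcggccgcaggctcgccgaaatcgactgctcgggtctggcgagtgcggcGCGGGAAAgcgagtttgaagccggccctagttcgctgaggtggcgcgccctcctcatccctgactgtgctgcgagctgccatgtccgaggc
Cdt1, chr8:122567765-122568064, plus strand, match beginning 32 bases after the start: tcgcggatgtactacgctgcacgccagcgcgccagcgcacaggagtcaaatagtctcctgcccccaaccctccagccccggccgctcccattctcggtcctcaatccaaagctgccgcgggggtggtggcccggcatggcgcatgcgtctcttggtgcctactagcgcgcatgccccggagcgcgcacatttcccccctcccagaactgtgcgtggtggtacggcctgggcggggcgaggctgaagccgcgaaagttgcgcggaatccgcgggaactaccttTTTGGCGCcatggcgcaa
In Mcm5 and Gins3 the capitals are the reverse complement of a searched motif, and in Cdt1 the motif stands as searched. A match describes the letters only, and the share with a match describes the list, not the difference between MI-E and MI. Neither motif was found in the 27 windows of mitosis genes. Gins3, a subunit of the GINS complex that joins the helicase, had 18.4, 15.1 and 22.02 CPM in MI-E, against 11.7, 13.1 and 11.5 CPM in MI. Cdt1 had 174, 152 and 213 CPM in MI-E, against 129, 94.4 and 119 CPM in MI.

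Histone genes of the Hist clusters, which are transcribed in S phase and whose transcripts mostly lack a poly(A) tail, had the largest median fold change of the 44 lists. Of 56 measured members (70 in the tables), 53 were higher in MI-E and the median fold change was 1.35. At an unadjusted p under 0.05, 39 were higher (69.6%, against 8.52% of all genes) and 0 lower (against 8.88%). Histone genes held 0.0346, 0.0529 and 0.0383% of counts in MI-E libraries, against 0.0216, 0.0183 and 0.0250% in MI libraries. The groups did not overlap, with an exact two-sided permutation p of 0.1, the smallest the design can give. Sham-E held 0.0316% and Sham 0.0402% on average.

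The linker histone gene Hist1h1d had 3.76, 8.29 and 4.96 CPM in MI-E, against 2.02, 1.54 and 2.02 CPM in MI (1.60 ± 0.31, adjusted p 0.085). Hist1h4i, a histone H4 gene, had 30.2, 44.3 and 32.7 CPM in MI-E, against 19.2, 19.1 and 12.1 CPM in MI (1.09 ± 0.21). Hist1h2bg, a histone H2B gene, averaged 9.50 ± 3.11 CPM in MI-E libraries and 2.05 ± 0.541 CPM in MI (SD, n = 3 each). Of the 6 MI-E and MI libraries, MI-E 3 was the highest for Hist1h1d, Hist1h4i and Hist1h2bg. In 26 of the 56 (46.4%) the MI libraries lay below all other 9 libraries, against 2.22% of all genes, and in 0 did the MI-E libraries lie above the other 9. The median was 1.01 after correction for GC content and length, the list having a median GC content of 56.8%. In that fit 27 of 56 were higher at an unadjusted p under 0.05 (48.2%, against 6.91% of all genes). Many histone genes are near-identical in sequence, so counts of single members are uncertain.

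Genes of mitosis had a smaller median. The median over 32 genes of the spindle and its checkpoint was 0.11, and 4 of them were higher at an unadjusted p under 0.05 (12.5%, against 8.52% of all genes): Plk1 at 0.57 ± 0.16, Incenp at 0.39 ± 0.14, Cdk1 at 0.36 ± 0.16 and Aurkb at 0.30 ± 0.14. After correction for GC content and length the median was 0.22, with 29 of 32 positive and 2 higher at that p (6.25%), and in the uncorrected fit it ran from 0.00 (without MI-E 4) to 0.19 (without MI 3). Mki67, the gene of the proliferation marker Ki-67, had a fold change of 0.21 and Top2a, the topoisomerase that untangles chromosomes, had -0.03, both with overlapping libraries. Cenpw, which encodes a centromere protein and is not in that list, was among the genes of smallest p, with 17.0, 16.2 and 14.2 CPM in MI-E, against 8.61, 7.68 and 8.83 CPM in MI (0.91 ± 0.17, adjusted p 0.085).

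**Figure D3:**
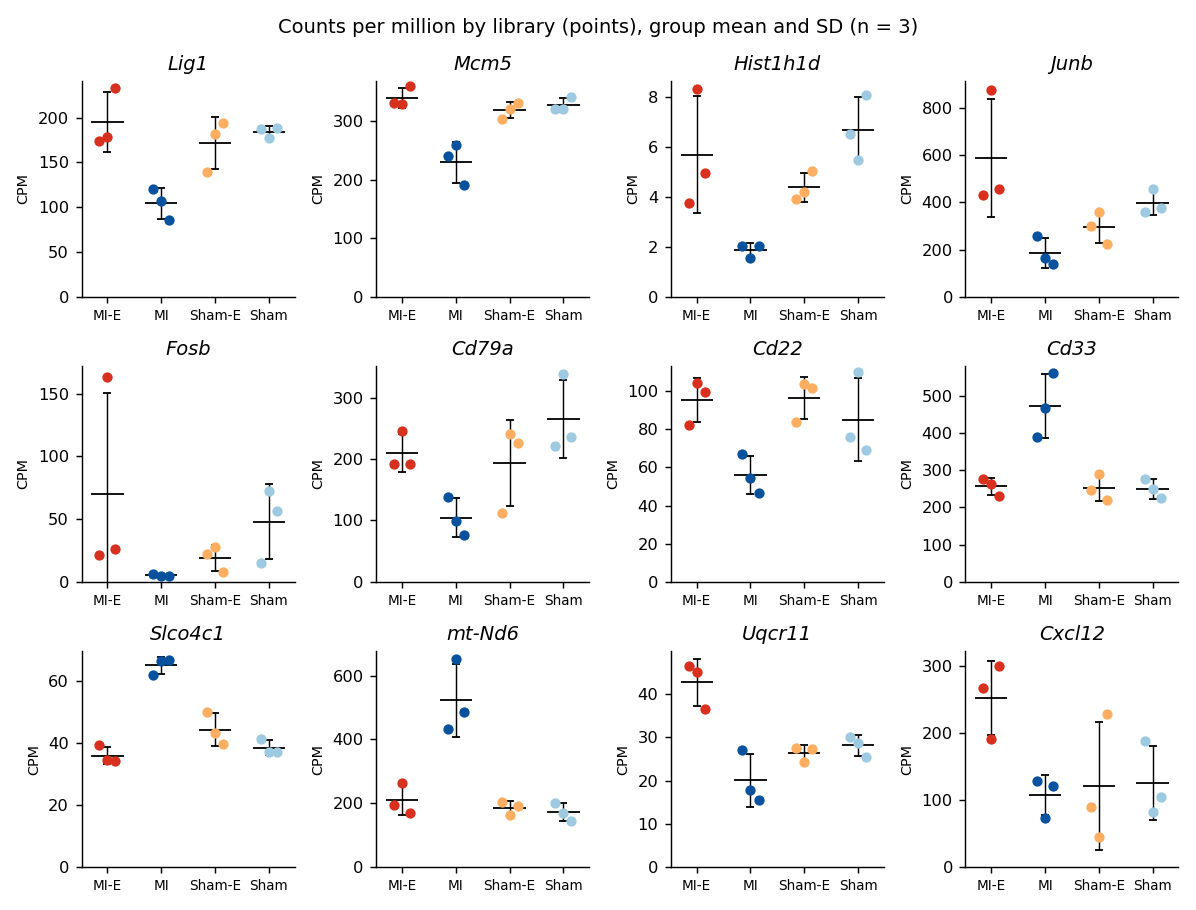
CPM of 12 genes in every library of the 4 groups (points), with the group mean and SD (n = 3 each) as bars. Lig1, Mcm5, Hist1h1d, Junb, Cd79a and Cd22 are higher in each MI-E library than in each MI library, Cd33, Slco4c1 and mt-Nd6 are lower, and for Fosb a single MI-E library reaches 163 CPM.

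Transcripts of the mitochondrial genome were lower in MI-E. All 9 measured members, both ribosomal RNAs among them, had a negative fold change, with a median of -0.88, and 8 were lower at an unadjusted p under 0.05 (88.9%, against 8.88% of all genes). Of the 6 other members in the tables, 5 are listed at 0 in every library and mt-Nd3 has at most 11 counts. All mitochondrial transcripts together held 1.33, 1.86 and 1.41% of counts in MI-E libraries, against 2.41, 3.58 and 2.23% in MI libraries (exact two-sided permutation p of 0.1, the smallest possible), with 1.61% in Sham-E and 1.55% in Sham. The MI libraries were thus the group apart: they lay above all other 9 libraries for 6 of the 9 genes (66.7%, against 1.96% of all genes).

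mt-Nd6, a complex I subunit and the protein gene on the light strand, had 195.5, 262 and 169 CPM in MI-E, against 432, 651 and 485 CPM in MI (-1.32 ± 0.21, adjusted p 0.085). The complex I subunit mt-Nd2 had 550.0, 760.2 and 553 CPM in MI-E, against 1156, 2126 and 1214 CPM in MI (-1.27 ± 0.24). MI 2 was the highest library for both. The genes are poor in GC, with a median of 35.8%, and after correction the median was -0.53 with 5 of 9 lower at an unadjusted p under 0.05 (5.49% of all genes in that fit); without MI 2 it was -0.63 in the uncorrected fit.

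Nuclear genes for the same machinery were higher. Of 77 nuclear genes of the respiratory chain and ATP synthase, 63 were higher in MI-E, with a median of 0.22. At an unadjusted p under 0.05, 24 were higher (31.2%, against 8.52% of all genes) and 1 lower (1.3%, against 8.88%). The complex III subunit Uqcr11 had 46.7, 45.2 and 36.5 CPM in MI-E, against 27.1, 17.8 and 15.4 CPM in MI (1.09 ± 0.19, adjusted p 0.085). Atp5k, the e subunit of ATP synthase, had 23.1, 23.5 and 20.8 CPM in MI-E, against 11.3, 4.31 and 2.76 CPM in MI (1.86 ± 0.38). Corrected for GC content and length their fold changes were 0.61 and 1.48; the median of the list was then 0.14, with 17 higher and 6 lower at an unadjusted p under 0.05 (22.1% and 7.79%, against 6.91% and 5.49% of all genes in that fit).

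Ribosomal protein genes were also higher in MI-E, 73 of 85 for the cytosolic ribosome (median 0.33) and 63 of 78 for the mitochondrial one (median 0.21). At an unadjusted p under 0.05, 33 of the cytosolic genes were higher (38.8%) and 1 lower, and 22 of the mitochondrial ones were higher (28.2%) and 2 lower. Over all genes 8.52% were higher and 8.88% lower at that p. Cytosolic ribosomal protein genes held 6.32, 6.58 and 5.98% of counts in MI-E libraries, against 5.82, 3.79 and 5.71% in MI libraries. MI 2 was far below the other MI libraries, and without it the median of the cytosolic genes was 0.14. After correction for GC content and length that median was 0.17. In the corrected fit 18 were higher and 7 lower at an unadjusted p under 0.05 (21.2% and 8.24%, against 6.91% and 5.49% of all genes). Rpl28 had 617, 572 and 581 CPM in MI-E, against 399.9, 194 and 247 CPM in MI (1.07 ± 0.21). Rpl22l1, a paralogue of Rpl22, had 68.3, 124.5 and 74.4 CPM in MI-E, against 40.4, 40.4 and 43.4 CPM in MI (1.10 ± 0.21, adjusted p 0.085), with 1.20 after correction.

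The position of the Sham libraries differed between these groups of genes. For 36 of the 85 cytosolic ribosomal protein genes the MI-E libraries lay above all other 9 (42.4%, against 2.63% of all genes), and for 3 the MI libraries lay below the other 9. The same held for 15 and 3 of the 78 mitochondrial ribosomal protein genes and for 13 and 1 of the 77 nuclear respiratory genes. Histone genes showed the opposite order, with 0 and 26 of 56, and S phase genes lay between, with 3 and 8 of 38. Over all genes tested the MI-E libraries lay above the other 9 for 397 (2.63%) and below them for 401 (2.65%), and the MI libraries above for 297 and below for 335.

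Immediate early genes, which encode transcription factors and feedback regulators made within minutes of a stimulus, were higher in MI-E. Of 24 measured members, 22 were higher, with a median of 0.92, and 14 were higher at an unadjusted p under 0.05 (58.3%, against 8.52% of all genes) with 0 lower. Averaged over its members, log2(CPM + 0.5) was 5.67, 6.80 and 5.68 in MI-E libraries and 5.25, 5.12 and 4.89 in MI libraries. MI-E 3 stood more than 1 log2 unit above the other MI-E libraries, which themselves lay within the range of Sham-E (5.43 to 5.89) and Sham (5.58 to 6.07).

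Junb, an AP-1 subunit, had 431, 879 and 456 CPM in MI-E, against 256, 162 and 137 CPM in MI (1.67 ± 0.31, adjusted p 0.085). Fosb, another AP-1 subunit, had 21.6, 163 and 25.9 CPM in MI-E, against 5.79, 4.16 and 4.88 CPM in MI (3.82 ± 0.90). Egr1 had 29.6, 184 and 29.99 CPM in MI-E, against 15.96, 10.6 and 10.4 CPM in MI (2.72 ± 0.72). Zfp36, which encodes an RNA-binding protein that destabilises cytokine transcripts, had 474, 829 and 430.4 CPM in MI-E, against 291, 214 and 126 CPM in MI (1.46 ± 0.33). Every MI-E library exceeded every MI library for Junb, Fosb, Egr1 and Zfp36. Without MI-E 3 the median of the list was 0.63, Fosb stood at 2.26 and Egr1 at 1.27, which are the lowest values on leaving out any 1 of the 6 libraries.

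Chemokine and cytokine genes followed the same library. Ccl3, Ccl4 and Osm had 40.1, 15.3 and 164 CPM in MI-E 3, while the other MI-E libraries had 11.7 and 14.3, 2.12 and 2.55, and 46.6 and 48.2 CPM. In MI libraries Ccl3 had 9.53, 5.65 and 5.67 CPM, Ccl4 had 1.85, 1.24 and 1.08 CPM and Osm had 35.1, 41.8 and 16.4 CPM. The list of 25 measured inflammation and chemokine genes had a median of 0.24, which was -0.03 without MI-E 3. At an unadjusted p under 0.05, 6 were higher (24%, against 8.52% of all genes) and 1 lower (4.0%, against 8.88%). Il1b, the gene of interleukin-1 beta, overlapped widely with 26.6, 179 and 40.1 CPM in MI-E, against 23.7, 75.1 and 14.2 CPM in MI.

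**Figure D4:**
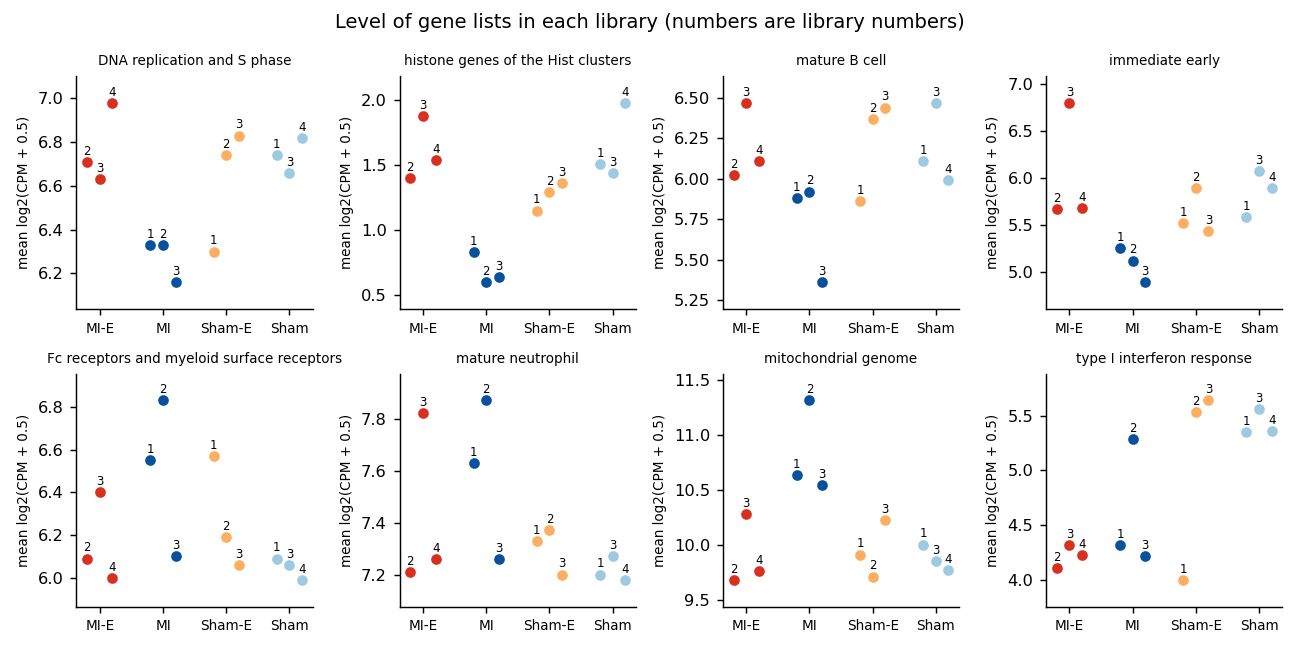
Mean log2(CPM + 0.5) of 8 gene lists in each library, by group, with library numbers beside the points. MI-E and MI libraries separate for S phase, histone, mature B cell, immediate early and mitochondrial genome lists, MI-E 3 stands out in the immediate early list, and MI 2 in the interferon and mitochondrial lists.

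Mature B-cell genes were higher in MI-E, and genes of early B lineage cells were not. Of 31 mature B-cell genes all 31 had a positive fold change, with a median of 0.47, and 12 were higher at an unadjusted p under 0.05 (38.7%, against 8.52% of all genes). Corrected for GC content and length the median was 0.39, and without MI-E 3 it was 0.30 in the uncorrected fit. Of 25 early B-lineage genes 10 were higher and 15 lower, with a median of -0.03 (0.22 without MI 2 and -0.23 without MI 1), and 1, Cd79a, had an unadjusted p under 0.05. List levels were 6.02, 6.47 and 6.11 in MI-E libraries and 5.88, 5.92 and 5.36 in MI libraries for mature B cells, and 4.97, 4.83 and 4.83 in MI-E against 4.64, 5.18 and 4.91 in MI for the early lineage. The early-lineage level was 5.90 to 6.26 in Sham, above every MI-E and MI library.

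Cd79a, a signalling chain of the B-cell receptor that is made from the early stages on, had 192, 245 and 191 CPM in MI-E, against 138, 98.9 and 76.1 CPM in MI (1.00 ± 0.29, adjusted p 0.14). Cd22, an inhibitory co-receptor of mature B cells, had 82.2, 104 and 99.8 CPM in MI-E, against 66.9, 54.4 and 46.7 CPM in MI (0.77 ± 0.19). Cxcr5, the receptor that guides B cells to follicles, averaged 26.7 ± 1.90 CPM in MI-E libraries and 15.5 ± 2.82 CPM in MI (SD, n = 3 each). Libraries did not overlap for Cd79a, Cd22 or Cxcr5. Ms4a1, the gene of CD20, overlapped with 86.3, 116 and 85.0 CPM in MI-E, against 74.4, 125 and 41.3 CPM in MI. The heavy chain gene Ighm averaged 921 ± 108 CPM in MI-E libraries and 888.5 ± 103 CPM in MI (SD, n = 3 each), a fold change of 0.05 ± 0.29.

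Among early genes, Dntt, which adds bases at V(D)J joints, had 21.4, 13.5 and 18.8 CPM in MI-E, against 26.3, 27.6 and 30.8 CPM in MI (-0.66 ± 0.46). The surrogate light chain gene Igll1 had 7.57, 5.29 and 6.05 CPM in MI-E, against 9.53, 14.1 and 22.7 CPM in MI (-1.29 ± 0.98). Both were lower without overlap, with wide standard errors. Sham-E 1, which shares the estimate of spread, had an early-lineage level of 3.50. The list as a whole did not lean that way. Of its 25 genes, the MI-E libraries lay wholly below the MI libraries for 2 and wholly above them for 4. Rag1, the recombinase gene, varied from 23.4 to 109.6 CPM within MI and overlapped.

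Genes that present antigen on MHC class II, which B cells share with dendritic cells, were higher for 11 of 12 members with a median of 0.50. At an unadjusted p under 0.05, 8 were higher (66.7%, against 8.52% of all genes) and 1 lower (8.33%, against 8.88%). After correction for GC content and length the median was 0.37, with 6 higher at that p (50%, against 6.91%). The median of Sham-E minus Sham was 0.31. The difference between MI-E and MI exceeded that in Sham at an unadjusted p under 0.05 for 0 of the 12, against 6.22% of all genes, and fell below it for 1. Several members are also in the mature B-cell list. H2-DMb2, which encodes a chain of the peptide loading factor H2-DM, had 38.1, 56.9 and 43.4 CPM in MI-E, against 28.8, 25.8 and 24.03 CPM in MI (0.82 ± 0.19). Ciita, the master transcriptional activator of the class II genes, averaged 38.7 ± 0.685 CPM in MI-E libraries and 27.9 ± 2.36 CPM in MI (SD, n = 3 each). The member that was lower, the lysosomal protease gene Ctss, is also made by monocytes. Dendritic cell genes as a list had a median of -0.15, which was 0.22 without MI 2 and -0.33 without MI 3. Of the 18, 0 were higher and 3 lower at an unadjusted p under 0.05 (16.7% lower, against 8.88% of all genes).

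Of 155 measured immunoglobulin variable segments 111 were higher, with a median of 0.41, but the median was 0.03 after correction for GC content and length. Plasma cell genes had a median of 0.21 (0.09 without MI 3 and 0.38 without MI 2). At an unadjusted p under 0.05, 1 of 15 was higher (6.67%, against 8.52% of all genes). T-cell genes were higher for 17 of 20 (median 0.43, and 0.25 without MI 2). At an unadjusted p under 0.05, 3 of the 20 T-cell genes were higher (15%, against 8.52% of all genes). The member of smallest p was Lck, a kinase of T-cell receptor signalling, with 21.8, 27.5 and 25.2 CPM in MI-E, against 18.5, 13.5 and 11.6 CPM in MI. Natural killer genes had a median of 0.00, and the libraries of all 17 overlapped.

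Genes of mature neutrophils and of myeloid surface receptors were lower in MI-E. Of 28 Fc and other myeloid receptor genes 27 had a negative fold change, which 52.4% of all genes had, with a median of -0.39, and 8 were lower at an unadjusted p under 0.05 (28.6%, against 8.88% of all genes) with 0 higher. Of 26 mature neutrophil genes 19 were lower, with a median of -0.32, and 8 were lower at an unadjusted p under 0.05 (30.8%) with 1 higher, the prostaglandin synthase gene Ptgs2. The MI-E libraries lay wholly below the MI libraries for 8 of the 28 receptor genes (28.6%) and 2 of the 26 neutrophil genes (7.69%). Over all genes that share was 10.1%. Levels of both lists overlapped between the groups: the receptor list stood at 6.09, 6.40 and 6.00 in MI-E libraries and 6.55, 6.83 and 6.10 in MI libraries, with MI 3 among the MI-E values. Without MI 2 the medians were -0.17 for receptors and -0.11 for mature neutrophils, and the mature neutrophil median was -0.14 without MI 1, -0.20 without MI-E 4 and -0.49 without MI-E 3.

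Cd33, a sialic acid-binding receptor of myeloid cells, was the member with the smallest p. It had 276, 263 and 231 CPM in MI-E, against 389, 467 and 562.5 CPM in MI (-0.88 ± 0.17, adjusted p 0.085), and stood at 253 CPM in Sham-E and 250 CPM in Sham. Here MI 3 was the highest library, unlike in the list as a whole. Tlr13, a sensor of bacterial ribosomal RNA, averaged 106 ± 5.97 CPM in MI-E libraries and 158 ± 20.7 CPM in MI (SD, n = 3 each). Fcer1g, the shared signalling chain of Fc receptors, averaged 232 ± 37.1 CPM in MI-E libraries and 339 ± 55.5 CPM in MI (SD, n = 3 each).

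Wfdc21, a secreted neutrophil protein gene, had 298, 463 and 318 CPM in MI-E, against 712, 667 and 482 CPM in MI (-0.79 ± 0.22). The collagenase gene Mmp8, stored in secondary granules, had 738, 898 and 818 CPM in MI-E, against 1457, 1619 and 943.5 CPM in MI (-0.71 ± 0.23). The formyl peptide receptor gene Fpr1 had 99.4, 116 and 99.0 CPM in MI-E, against 144, 166 and 113 CPM in MI, with overlap. Secondary granule genes as a list were lower for 16 of 18 (median -0.26), with 1 at an unadjusted p under 0.05 (5.56%, against 8.88% of all genes). Primary granule genes, made earlier in the lineage, were higher for 12 of 15 (median 0.30), with 1 at an unadjusted p under 0.05 (6.67%, against 8.52% of all genes). Neither share exceeded that of all genes, and on leaving out 1 library the medians ran from -0.48 (without MI 3) to -0.10 (without MI 2) for secondary granule genes and from 0.16 (without MI 3) to 0.37 for primary granule genes. The primary granule median was 0.11 after correction for GC content and length, and the secondary granule median was -0.34.

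Monocyte genes had a median of -0.17. At an unadjusted p under 0.05, 3 of 16 were lower (18.8%, against 8.88% of all genes) and 1 higher (6.25%, against 8.52%). Marrow macrophage genes had a median of -0.26, with 1 of 20 lower at that p (5.0%, below the 8.88% of all genes). Both medians were within 0.1 of 0 on leaving out 1 MI library, 0.08 without MI 2 for monocytes (-0.36 without MI 3) and -0.04 without MI 3 for macrophages.

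Type I interferon genes, which a cell makes on sensing a virus or the cytokine itself, were lower on average in MI-E but rested on MI 2. Of 38 members 36 had a negative fold change, with a median of -0.53, yet 4 were lower at an unadjusted p under 0.05 (10.5%, close to the 8.88% of all genes). The list level was 4.11, 4.32 and 4.23 in MI-E libraries and 4.32, 5.29 and 4.22 in MI libraries, and the median was -0.05 without MI 2. The interferon-induced GTPases, which attack vacuoles of intracellular microbes, were lower for all 15 members with a median of -0.34, which was -0.14 without MI 2. For the type I interferon list, levels in Sham and Sham-E were 5.35 to 5.64 except in Sham-E 1 at 4.0. Every MI-E library and every MI library lay below every Sham library for that list.

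Oas2, a sensor of double-stranded RNA, had 24.5, 25.6 and 20.5 CPM in MI-E, against 41.2, 78.4 and 19.6 CPM in MI. Gbp2, a guanylate-binding protein gene, had 7.83, 10.5 and 7.14 CPM in MI-E, against 9.196, 24.98 and 13.8 CPM in MI (-0.91 ± 0.39). Both overlapped between groups. The interferon-stimulated response element, searched as GAAA, any 2 bases and GAAA on both strands of the same windows, was present in 16 of 27 type I interferon genes (59.3%) and 9 of 10 GTPase genes (90.0%) with a RefSeq promoter, against 3.96% of all genes. The window of Gbp2, the GTPase with the largest fold change, is shown as the example of that shared letter pattern, with the match, in reverse complement, in capitals.
Gbp2, chr3:142620413-142620712, plus strand, match beginning 59 bases before the start: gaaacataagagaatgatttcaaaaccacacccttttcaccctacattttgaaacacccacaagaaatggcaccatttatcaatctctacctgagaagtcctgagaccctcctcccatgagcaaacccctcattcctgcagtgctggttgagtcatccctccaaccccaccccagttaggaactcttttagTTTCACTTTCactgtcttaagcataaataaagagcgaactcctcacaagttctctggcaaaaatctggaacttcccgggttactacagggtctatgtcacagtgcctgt

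Erythroid genes were higher for 24 of 28 members with a median of 0.42, but 1 was higher at an unadjusted p under 0.05 (3.57%, below the 8.52% of all genes). The MI-E libraries lay wholly above the MI libraries for 8 of the 28 (28.6%, against 11.6% of all genes) and wholly below for 0 (against 10.1%). The median was 0.17 when MI-E 4 was left out, 0.24 when MI 2 was left out and 0.93 when MI 3 was left out. Their level was 8.50, 8.58 and 9.24 in MI-E libraries and 8.08, 7.75 and 8.95 in MI libraries, with MI 3 above the lowest MI-E libraries. The erythroid master regulator gene Klf1 had 204, 169.6 and 304 CPM in MI-E, against 116, 70.2 and 80.5 CPM in MI (1.35 ± 0.67), while haemoglobin transcripts held 2.41 ± 0.656% of counts in MI-E and 2.00 ± 1.42% in MI (SD, n = 3 each; exact two-sided permutation p of 0.7).

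Megakaryocyte and platelet genes were higher for 21 of 24, with a median of 0.73. At an unadjusted p under 0.05, 7 were higher (29.2%, against 8.52% of all genes) and 0 lower (against 8.88%). Their level was 4.27, 4.05 and 4.14 in MI-E libraries and 3.85, 3.22 and 3.33 in MI libraries, without overlap. The platelet adhesion receptor subunit Gp9 had 13.6, 12.8 and 16.1 CPM in MI-E, against 8.65, 2.48 and 3.996 CPM in MI (1.48 ± 0.44, adjusted p 0.15), and Gp5 of the same complex had 15.8, 10.9 and 14.5 CPM in MI-E, against 9.32, 3.07 and 5.62 CPM in MI. MI 1 was the highest MI library for both. The Sham libraries spread over 3.04 to 4.11 and Sham-E over 2.97 to 3.61, a wide spread among libraries without infarction.

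Stromal niche genes were higher for 17 of 24 with a median of 0.55, and 5 of them at an unadjusted p under 0.05 (20.8%, against 8.52% of all genes). The median was 0.94 without MI 3 and 0.40 without MI 2. After correction for GC content and length the median was 0.66, with 20 of 24 positive. In that fit 3 of 24 were higher at an unadjusted p under 0.05 (12.5%, against 6.91% of all genes). Cxcl12, the chemokine that retains stem cells, neutrophils and B-cell precursors in marrow, had 267, 192 and 300 CPM in MI-E, against 129, 73.1 and 120 CPM in MI (1.23 ± 0.52, adjusted p 0.26). The 3 MI-E libraries lay above all MI libraries, while Sham-E averaged 121 ± 96.0 CPM and Sham 125 ± 55.7 CPM (SD, n = 3 each). Igfbp5, a secreted binder of insulin-like growth factors, had 49.7, 34.0 and 50.6 CPM in MI-E, against 18.7, 14.9 and 19.5 CPM in MI (1.34 ± 0.54). The receptor gene Cxcr4, through which Cxcl12 acts, had 331, 411 and 333 CPM in MI-E, against 359.9, 389 and 358 CPM in MI (-0.04 ± 0.21). Endothelial genes had a median of 0.36, with 5 of 20 higher at an unadjusted p under 0.05 (25%, against 8.52% of all genes). That median was 0.17 without MI-E 2 and 0.21 without MI 2. After correction it was 0.20, with 3 of 20 higher at that p (15%, against 6.91% of all genes in that fit).

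The transporter that EMPA inhibits was scarcely detected. Slc5a2, the gene of SGLT2, had 14, 28 and 33 counts in MI-E, against 0, 5 and 6 counts in MI (2.66 ± 0.94, adjusted p 0.19), with 0, 6 and 9 counts in Sham-E and 13, 10 and 21 counts in Sham. The MI-E and MI libraries did not overlap, at levels of at most 1.502 CPM. Slc5a1, the gene of SGLT1, had 0 counts in each MI-E and MI library.

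Genes of fuel use had medians near 0. Glucose uptake and glycolysis had a median of 0.05 over 25 genes, and fatty acid oxidation and ketone use had -0.05 over 26. Of the glycolysis genes 3 were higher at an unadjusted p under 0.05 (12.0%, against 8.52% of all genes) and 1 lower (4.0%, against 8.88%). The hexokinase gene Hk1, the first step of glycolysis, had 308, 246 and 367.5 CPM in MI-E, against 224, 148 and 117 CPM in MI (0.91 ± 0.23), and Pfkfb3, whose product activates phosphofructokinase, averaged 69.6 ± 10.7 CPM in MI-E libraries and 96.5 ± 12.9 CPM in MI (SD, n = 3 each). In fat oxidation 5 genes were higher at an unadjusted p under 0.05 (19.2%, against 8.52% of all genes). They were led by Etfa, an electron acceptor of the acyl-CoA dehydrogenases, at 0.47 ± 0.12.

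**Figure D5:**
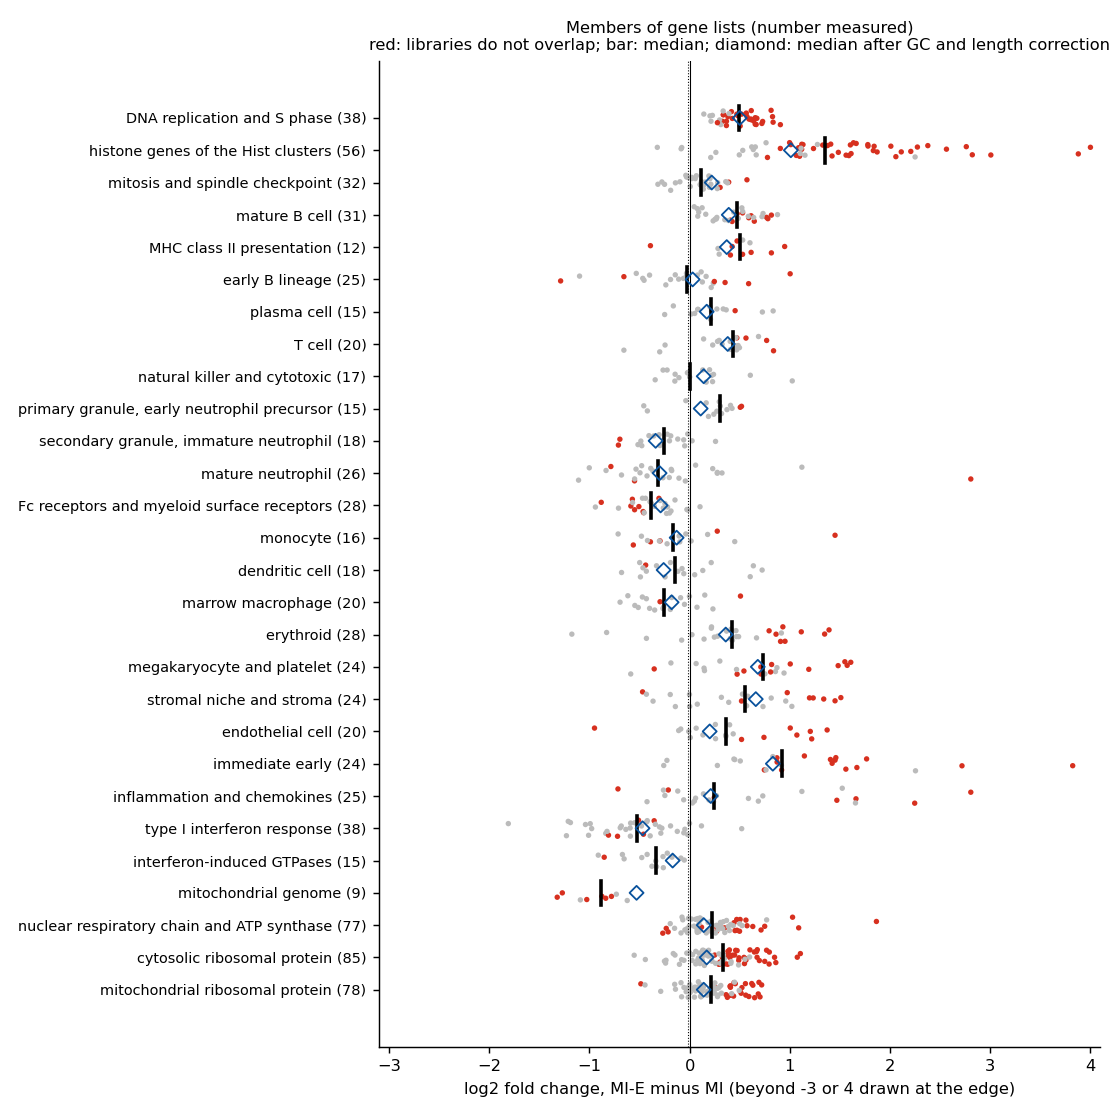
Log2 fold change of MI-E minus MI for the measured members of 28 gene lists (points, red where the libraries of the groups do not overlap), with the median of each list as a bar and the median after GC and length correction as a diamond. S phase, histone and immediate early lists lie to the right with medians of 0.49, 1.35 and 0.92, and the mitochondrial genome lies to the left at -0.88.

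Outside these lists, the gene named by smallest p was Slco4c1, which encodes an organic anion transporter. It had 39.2, 34.45 and 34.1 CPM in MI-E, against 61.8, 66.4 and 66.9 CPM in MI (-0.86 ± 0.12, adjusted p 0.060), with 44.3 CPM in Sham-E and 38.5 CPM in Sham, so MI alone was high. Corrected for GC content and length, the fold change was -0.45 with an adjusted p of 0.23. Lower genes named by the same rule included Bmpr2, a receptor for bone morphogenetic proteins (-1.10 ± 0.22), Ifi207 of the DNA-sensing PYHIN family (-1.09 ± 0.22), Ythdf3, a reader of methylated adenosine in mRNA (-0.69 ± 0.14), and Vps54, a subunit of an endosome tethering complex (-0.64 ± 0.12), each with an adjusted p of 0.085. Their corrected values were -0.68, -0.85, -0.33 and -0.32.

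Among higher genes of that rule, Pfdn6, a subunit of prefoldin, which hands unfolded actin and tubulin to the chaperonin, had 41.5, 33.4 and 32.2 CPM in MI-E, against 20.5, 15.4 and 15.98 CPM in MI (1.04 ± 0.17). Bex3 had 28.7, 29.3 and 28.8 CPM in MI-E, against 17.4, 8.53 and 10.85 CPM in MI (1.24 ± 0.21). Pebp1, an inhibitor of Raf kinase signalling, had 98.4, 106 and 89.9 CPM in MI-E, against 65.0, 59.4 and 50.4 CPM in MI (0.75 ± 0.13). Gar1, a core protein of the particles that pseudouridylate ribosomal RNA, averaged 21.7 ± 3.31 CPM in MI-E libraries and 9.69 ± 3.20 CPM in MI (SD, n = 3 each). Corrected fold changes were 0.78 for Pfdn6, 1.12 for Bex3, 0.42 for Pebp1 and 0.93 for Gar1, and after correction Cenpw, Rpl22l1, Bex3, Pdap1, mt-Nd6 and Hist1h1d had adjusted p-values of 0.071 to 0.097.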

How the data were processed

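RNA-seq of mouse bone marrow was read from 2 tables of the whole series. The authors deposited expected counts per gene and TPM per gene. Per the submitters' processing notes, CASAVA 1.8, STAR 2.4.0j, RSEM and build mm10 were used; the strand setting is not given in the sources used here. Column numbers differ from the numbers in the sample titles, so each column was placed in its group by name.

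Expected counts were rounded and genes with low counts removed (filterByExpr). All 12 libraries entered 1 fit with 4 group means, TMM scaling and robust quasi-likelihood dispersions (edgeR 4.0.16, limma 3.58.1, R 4.3.3; 8 residual degrees of freedom), with Benjamini-Hochberg adjusted p-values and a threshold of 0.05. The method was tested on simulated data. Insert length was fitted from counts and TPM. The TPM served otherwise for an alternative, limma's trend test on log2(TPM + 0.5). DESeq2 1.42.0, voom, other scalings and filters, a correction for GC content and length, a replicate block and leaving out single libraries were the other alternatives. Gene positions are from GENCODE M21 and promoters from RefSeq GRCm38.p6.

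Genes named by rule were those past the threshold, up to 4 members of smallest p from each of 44 lists, and, at a mean log2 CPM of at least 1 without overlap of libraries, the 12 of smallest p and the 8 of largest fold change in each direction (uncharacterised names and receptor segments left out), beside a fixed set of transporter and B-cell genes. Other members named, such as Pcna, Cdt1, Pole, Il1b, Mki67 and Top2a, were chosen after their values were seen. The members and lists were chosen with earlier results of these data known. Lists are described by counts and medians beside the same over all genes tested, and exact permutation tests over 3 against 3 libraries cannot give a p below 0.1. Some genes named by the rule are not reported here.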

Additional observations from a re-analysis of the deposited data

Results flagged for a closer look

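B430305J03Rik differed between the infarcted and sham pairs: its EMPA difference in infarcted mice less that in sham mice was 7.395 ± 0.79 on the log2 scale, with an adjusted p of 0.0072 (edgeR's interaction test). Mean levels were 5.49 ± 0.96 CPM for MI-E, 0.0496 ± 0.0859 CPM for MI, 5.25 ± 2.24 CPM for Sham-E and 8.42 ± 1.35 CPM for Sham (SD, n = 3 each). It shares all of its exon bases with Rap2b on the other strand, and the part of read assignment between the pair in this result was not tested.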

How the results depend on the processing

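The number of genes past the adjusted threshold varied with the tool, the filter and single libraries. Higher in MI-E were 1 gene in edgeR as reported, 2 with library totals alone, 2 with the 6 libraries of MI-E and MI, 21 with no filter on low counts, 338 with DESeq2, 0 with limma-voom, and 31 and 34 with limma's trend test on log2(TPM + 0.5) and log2(TPM + 0.1). Lower were 0 as reported (1342 at an unadjusted p under 0.05), 1 with the 6 libraries, 12 with no filter, 239 with DESeq2, 1 with limma-voom, and 7 and 8 with the TPM tests. Leaving out 1 library gave 1 to 487 higher and 0 to 501 lower, the highest counts coming without MI 1, with 32 and 10 without Sham-E 1 and 1 lower without Sham-E 2. For the difference of EMPA differences, 1 gene was called as reported, 167 with DESeq2, 0 with limma-voom, 6 and 12 with the TPM tests, and 1 to 150 on leaving out 1 library, with 150 without MI 1 and 2 without Sham-E 2. The cause of these differences was not tested.

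For the numbers 2 and 3 shared by MI-E and MI columns, r of the libraries' deviations from their group means was -0.114 and -0.206. Between columns of unlike number it ran from -0.124 to 0.216. With only 2 shared numbers, these values cannot decide whether the libraries are paired. With the replicate block 1 gene was higher, 0 lower and 0 called for the difference of differences; with the block and the GC content and length correction the counts were 0 higher and 0 for the difference of differences.

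Some single genes had the opposite sign under some settings. With the GC content and length correction Cebpa was -0.01, Klrk1 0.14, Il7r 0.09 and Cxcr4 0.02, and with the block added Klrk1 was 0.08, Slc5a3 0.04 and Ighm -0.14, while Ighm was -0.10 with the block alone. On log2(TPM + 0.5) Col3a1 was -0.07, Derl3 -0.02 and Il7 -0.01, and on log2(TPM + 0.1) Derl3 was -0.02 and Il7 0. Leaving out 1 library gave ranges that crossed 0: -0.02 (without MI 3) to 0.53 for Itgb3, -0.56 to 0.03 (without MI 2) for Pparg, -0.06 (without MI 3) to 0.73 for Ms4a1, -0.11 (without MI 1) to 1.21 for Il7, -0.42 to 0.01 (without MI 3) for Il7r, -0.90 to 0.41 (without MI 2) for Rag1, -0.15 to 0.01 (without MI-E 2 or MI-E 4) for Cxcr4, and -0.05 (without MI-E 3, with -0.01 without MI 3) to 0.15 for Ighm. Expected counts assign shared reads by a model, so genes at few counts are limited by that assignment as well as by depth.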

Other observations

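Chaperone genes that fold actin and tubulin, prefoldin and the chaperonin, had a median fold change of 0.10 over 14 genes, with 4 higher at an unadjusted p under 0.05 (28.6%, against 8.52% of all genes) and 0 lower. Heat shock chaperones had a median of -0.05 over 20 genes (0.22 without MI 2 and -0.20 without MI 3), with 0 at an unadjusted p under 0.05 in either direction. Genes answering to glucocorticoids had a median of -0.23 over 21 genes, which was 0.18 without MI 3 and -0.41 without MI-E 2. Of the 21, 1 was higher and 1 lower at an unadjusted p under 0.05 (4.76% each, against 8.52% and 8.88% of all genes).

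Genes of eosinophils, basophils and mast cells had a median of -0.11 over 19 genes, and 0.16 without MI-E 4. Of the 19, 3 were higher at an unadjusted p under 0.05 (15.8%, against 8.52% of all genes) and 0 lower. Stem and progenitor genes had a median of -0.08 over 23 genes, and genes of the phagocyte NADPH oxidase had -0.09 over 8. Osteoblast genes had a median of 0.05 over 17 genes and osteoclast genes -0.05 over 8. Genes of B-cell receptor signalling had a median of 0.22 over 19 (0.08 without MI-E 3) and of B-cell homing and survival 0.10 over 18. Skeletal muscle genes had a median of 0.18 over 10 genes, which was -0.02 without MI-E 2 and 0.56 without MI 3. Of the 10, 2 were higher at an unadjusted p under 0.05 (20%, against 8.52% of all genes). Adipocyte genes had a median of 0.17 over 7 genes, which was 0.46 without MI 2. Of these 7 genes, 1 was higher at an unadjusted p under 0.05 (14.3%, against 8.52% of all genes). Their mean log2(CPM + 0.5) was 3.35, 3.30 and 3.26 in MI-E and 3.07, 2.96 and 2.99 in MI, without overlap.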
